A study of Mus musculus with 4 samples.

Results

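The m6A peaks on the mRNAs of 9 genes that write and erase m6A itself were examined in mouse brain. The genes were chosen by name. They are Mettl3 and Mettl14, which form the catalytic core of the m6A methyltransferase complex, its regulatory subunits Wtap, Zc3h13, Rbm15, Rbm15b and Cbll1, and the demethylases Fto and Alkbh5. A peak was counted for a gene when it lay over an exon of any of its GENCODE M21 transcripts (build mm10). By this rule 37 of the 38533 peaks of replicate 1 and 27 of the 30134 peaks of replicate 2 belonged to the 9 genes, which are 9 of 21951 annotated protein-coding genes.

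The series holds 4 samples of whole brain at 4 weeks of age, from C57BL/6J mice that the series' design text describes as Prrc2a flox/flox, with no Cre driver named. In 2 samples the mRNA fragments bound by an antibody against m6A were sequenced (IP), and 2 are the matching inputs. Each IP sample has a list of peaks giving each one's position and its enrichment, the IP signal divided by that of its own input on a linear scale. There was no second condition, so that every comparison below is between genes, between peaks or between the replicates, and none was tested. The lists hold no read numbers, so depth and RNA level are unknown here, and a mark in few brain cells cannot be told apart from a weak mark in many.

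m6A is deposited in the nucleus on newly made RNA. METTL3 carries the active site and METTL14 helps to hold the RNA. WTAP keeps the pair in nuclear speckles, ZC3H13 links WTAP to other subunits, RBM15 and RBM15B bind RNA and bring the complex to it, and CBLL1, also known as Hakai, is a ubiquitin ligase found in the complex. FTO and ALKBH5 are iron-dependent dioxygenases that remove the methyl group. Methylation favours adenosines in the core GGAC, often within GGACU, and in mRNA it is known to gather in long exons and near stop codons.

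The sequences under the peaks that carry this consensus were GGACT sites (GGACU in RNA) in 5 of the 9 genes. Each is shown because it lies in bases common to a peak of both replicates, written 5′ to 3′ on the strand of the gene from the GRCm38 reference, with up to 10 bases on either side and the consensus in capitals. Codons are counted from the start codon of the representative transcript, chosen for the longest coding sequence (CDS) of the gene.
Wtap, chr17:12975050-12975074, minus strand, 3′ UTR of a shorter isoform: tgatgccgtcGGACTattccgaaga
Wtap, chr17:12967887-12967911, minus strand, codon 254: agtaccagcaGGACTacatcttctg
Wtap, chr17:12967490-12967514, minus strand, codon 386: agaatggcttGGACTcaaatgtaaa
Zc3h13, chr14:75321721-75321745, plus strand, codon 361: tcctaccagaGGACTttaactccat
Zc3h13, chr14:75323362-75323386, plus strand, codon 468: gagacatgcgGGACTccagagagat
Zc3h13, chr14:75332108-75332132, plus strand, codon 1469: gcagctcccgGGACTccgtggcctt
Rbm15, chr3:107332881-107332905, minus strand, codon 63: gtggcggtgaGGACTccagttctcg
Rbm15, chr3:107331180-107331204, minus strand, codon 630: gaggtgatcgGGACTtgcccagcag
Rbm15b, chr9:106886077-106886101, minus strand, codon 293: ggcggccgtgGGACTgtctcgagag
Rbm15b, chr9:106886054-106886078, minus strand, codon 301: agcgagccctGGACTattacgggct
Rbm15b, chr9:106885319-106885343, minus strand, codon 546: ttttggaaggGGACTggaccagcct
Alkbh5, chr11:60538910-60538934, plus strand, codon 167: acgagatcccGGACTgggtgcatca
Alkbh5, chr11:60554423-60554447, plus strand, 3′ UTR: tgccctcttgGGACTctggctaatc

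The first Wtap site lies in an intron of the representative transcript, which is 3′ UTR in the shorter isoform. The sites at codons 293 and 301 of Rbm15b lie in 1 shared interval, as do those at codons 254 and 386 of Wtap. A GGACT match is only a description of the sequence, since the peaks do not resolve single adenosines. In Mettl3, Mettl14, Cbll1 and Fto no GGACT lay in a shared interval. For Mettl3, Cbll1 and Fto the GGAC nearest to the middle of the strongest shared interval is shown instead.
Mettl3, chr14:52296691-52296714, minus strand, codon 472: aggacgggccGGACgggtcactgg
Cbll1, chr12:31487577-31487600, minus strand, codon 389: ccctccccctGGACatattattgc
Fto, chr8:91409653-91409676, plus strand, codon 189: atgatgaagtGGACcttaagagca

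The shared interval of Mettl14 held neither GGACT nor GGAC.

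All 9 genes had at least 1 peak in each replicate that overlapped a peak of the other by at least 1 bp. Across all protein-coding genes the share with such a shared interval was 45.5%, a figure that includes genes with no RNA in brain. The writers and erasers differed widely among themselves. The 5 regulatory subunits together held 20 of the 27 shared intervals, 9 of them in Zc3h13, the 2 demethylases 5 and the 2 core subunits 2. These counts are not scaled to mRNA length. In Zc3h13, Rbm15b and Cbll1, 1 peak of a replicate overlapped 2 of the other and so gave 2 intervals. When 2-fold enrichment or more was required of both peaks, 18 of the 20 regulatory intervals were left, 2 of the 5 demethylase intervals, and neither of the core intervals. In all this was 20 of 27, beside 63.1% of all 23901 shared intervals. Thus 7 of the 9 genes had a shared interval at that level, compared with 36.8% of all protein-coding genes.

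**Figure D1:**
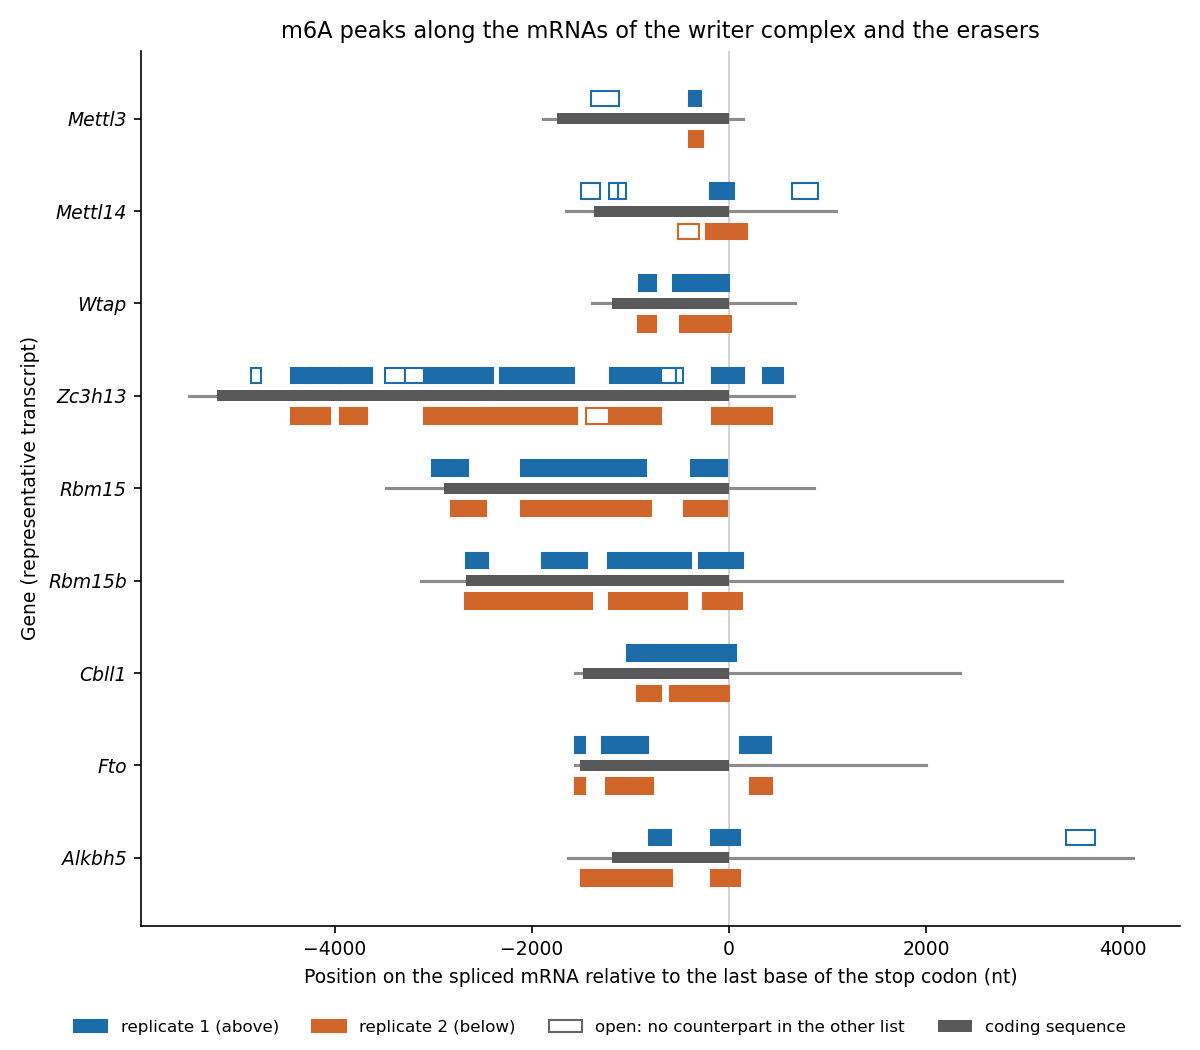
Peaks of replicate 1 (blue, above each mRNA) and replicate 2 (orange, below) on the spliced representative mRNA of each gene, in nt from the last base of the stop codon, with the coding sequence as a thick bar. Open boxes are the 13 peaks without a counterpart, 6 of them in Zc3h13 and 5 in Mettl14, and only the part of a peak that lies in exons of the drawn transcript is shown, so that peaks of adjoining exons touch.

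Mettl3 (chromosome 14, 52294841 to 52305128, minus strand, 11 exons) had the lowest share of its mRNA under shared intervals. Its 1 shared interval (52296573 to 52296818) was enriched 1.78-fold in replicate 1 and 1.64-fold in replicate 2. These values stood at the 12.7 and 18.2 percentiles of their lists. The interval covered exon 8 and the start of exon 9, codons 448 to 487 of 580, and 128 of its 246 nt lay outside exons of the representative transcript, where the annotation also has retained-intron transcripts. A stronger Mettl3 peak in exon 3, the longest exon, reached 2.54 in replicate 1, where alone it was found. The nearest replicate 2 peak to it was 2982 bp away.

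Mettl14 (chromosome 3, 123368297 to 123386108, minus strand, 11 exons) had 5 peaks in replicate 1 and 2 in replicate 2, of which 1 was shared. The shared interval (123369336 to 123369572) covered the end of the CDS and the stop codon in the last exon. Its fold enrichments were 2.03 and 1.94, the 21.6 and 36.2 percentiles. The other 4 peaks of replicate 1 ranged from 1.43 to 2.13 and lay over the start codon, in exons 3 and 4, and in the 3′ UTR. The other peak of replicate 2, in exon 10, had 2.11. The peak at the stop codon was thus the only Mettl14 peak found in both replicates, below the median of each list.

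Wtap (chromosome 17, 12966796 to 12994169, minus strand, 8 exons) had 2 peaks in each replicate, and both were shared. Its strongest interval (12975029 to 12975473) was enriched 4.57-fold and 3.48-fold in replicates 1 and 2, at the 84.9 and 89.6 percentiles. It began next to the 5′ end of exon 6 and ran 267 nt past the exon's 3′ end, into what is an intron of the transcript for the protein of 396 codons. In 2 other annotated transcripts, which encode 151 codons, exon 6 is the last exon and continues through these bases, so that the middle of the interval lies 41 nt after their stop codon. The replicate 2 peak was longer than that of replicate 1, 853 nt against 445 nt, and extended farther into this region. The lists carry no strand and no spliced reads, and which of the transcripts the signal came from was not tested.

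The second Wtap interval (12967462 to 12967962) lay in the last exon and covered codons 233 to 396 and the stop codon. Its fold enrichments were 3.91 and 3.33. With the lower of both values taken, the exon 6 interval of Wtap was the strongest of all 27, and it stood at the 82.7 percentile of the strongest intervals of all genes with a shared interval on the mRNA. Mettl3 stood at the 6.8 percentile of the same ranking and Mettl14 at the 16.6 percentile.

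Zc3h13 (chromosome 14, 75284373 to 75344426, plus strand, 19 exons) was the most densely marked gene, with 14 peaks in replicate 1, 9 in replicate 2 and 9 shared intervals. The number of intervals stood at the 99.0 percentile of the 9673 genes with a shared interval on the mRNA, whose median was 2. Exon 12 held the strongest peak of all 9 genes in replicate 1, with a fold enrichment of 8.32 at the 99.5 percentile of the list. The same exon had 2.80 in replicate 2, at the 74.3 percentile. Exon 15 came next in replicate 1 with 6.57, against 2.78 in replicate 2, and exon 10 had 4.42 and 2.90. In replicate 2 the strongest Zc3h13 peak lay instead over the stop codon in exon 19, with 3.01 against 2.82 in replicate 1.

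By the lower value of both replicates the remaining Zc3h13 intervals were weaker. Exon 8 had 3.23 and 2.48 in replicates 1 and 2, and exon 14 had 3.03 and 2.04. Exon 9 had 2.58 in both replicates, exon 13 had 1.96 and 2.00, and an interval of 85 nt in the 3′ UTR had 2.20 and 3.01. That last interval was the smallest overlap among the 9 genes, and its replicate 2 peak also covered the stop codon. Every exon with a Zc3h13 peak in replicate 2 had one in replicate 1 too, but the strongest was a different one. In replicate 2, however, exons 19 (3.01), 10 (2.90), 12 (2.80) and 15 (2.78) differed by less than the spread between replicates given below. Their order in that list is therefore not resolved.

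Zc3h13 also held 6 of the 13 peaks without a counterpart. In replicate 1 these 5 peaks ranged from 1.61 in exon 5 to 2.84 in exon 11. The replicate 2 peak was in exon 14 with 2.33, and lay 119 bp from the nearest replicate 1 peak. The replicate 1 peak in exon 10 lay 177 bp from a replicate 2 peak. The other peaks of the 9 genes without a counterpart were at least 455 bp from any peak of the other list.

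Rbm15 (chromosome 3, 107325421 to 107333673, minus strand) has 2 exons, the first of 3459 nt. All 3 of its peaks were shared, and all lay in that exon. Fold enrichment in replicate 1 rose along the mRNA, from 1.72 near the start codon to 4.51 in the middle of the CDS and 5.91 in its last part. In replicate 2 the values were 2.57, 2.64 and 3.24. The middle interval was 1265 nt long, the longest of the 27, covered codons 262 to 683 of 962 and held 15 GGAC cores.

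Rbm15b (chromosome 9, 106880918 to 106887428, minus strand), a close relative of Rbm15, has a representative transcript of 1 exon of 6511 nt. It had 4 peaks in replicate 1 and 3 in replicate 2, since 1 replicate 2 peak of 1289 nt spanned 2 peaks of replicate 1. From the start codon to the stop codon the intervals had 2.19, 3.47, 4.87 and 5.88 in replicate 1. In replicate 2 the corresponding peaks had 2.50, 2.50, 2.24 and 3.04, the value of the long peak counting for the first 2 intervals. The strongest interval (106884171 to 106884562) covered the stop codon in both replicates. In both RNA-binding subunits the strongest interval was thus the one nearest to the stop codon in both replicates. Its lead over the next strongest was in each case smaller than the spread between replicates given below. Beyond the end of that peak the 3′ UTR of Rbm15b, 3386 nt long, carried no peak.

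Cbll1 (chromosome 12, 31484829 to 31499616, minus strand, 6 exons) had 1 peak of 1115 nt in replicate 1, enriched 5.0-fold at the 89.4 percentile. In replicate 2 the same stretch of the last exon was split into peaks of 2.39 and 2.49, the second ending at the stop codon. Part of it overlaps an exon of another annotated gene, Gm29542, and without strand the reads of both genes cannot be told apart. The mark began at codon 181 of 491 in the shared bases.

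**Figure D2:**
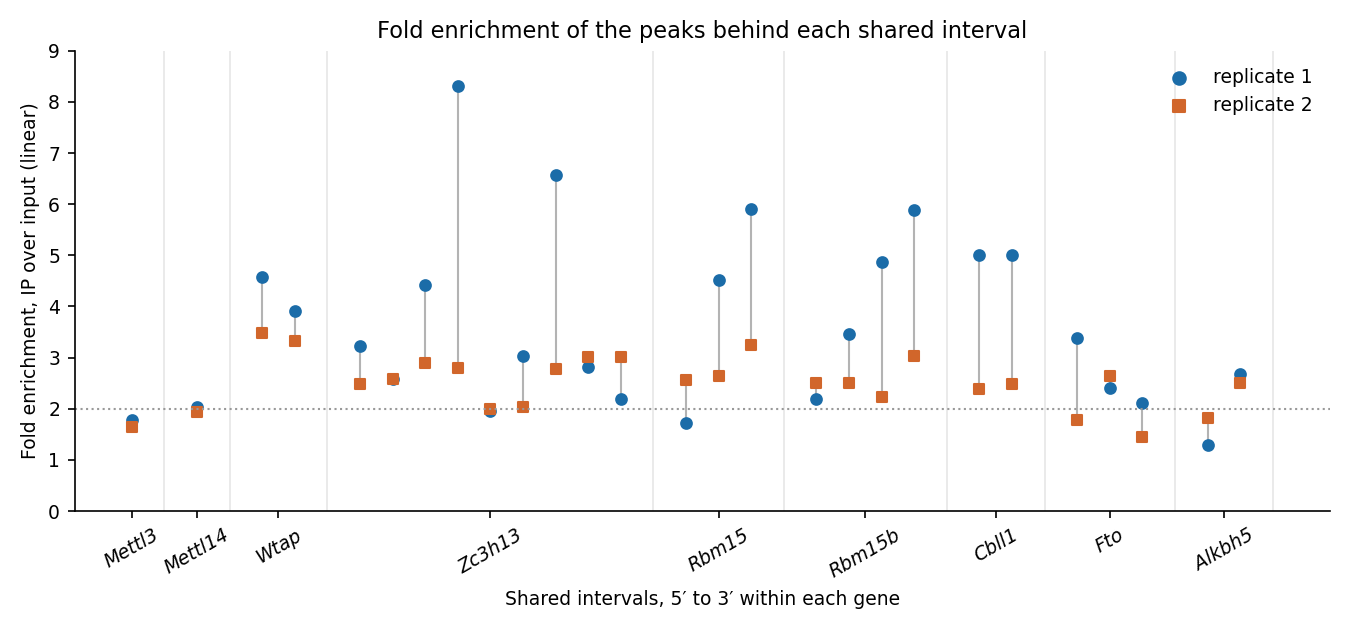
Fold enrichment (linear, IP over input) of the replicate 1 peak (blue circles) and the replicate 2 peak (orange squares) behind each of the 27 shared intervals, ordered 5′ to 3′ within each gene, with a dotted line at 2. Both Mettl3 values lie below the line, the Wtap pairs lie well above it, and the widest gap is at exon 12 of Zc3h13, with 8.32 and 2.80.

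Fto (chromosome 8, 91313525 to 91668439, plus strand, 9 exons) carried 3 shared intervals and no other peak. The interval over the first exon had 3.39 in replicate 1 and 1.78 in replicate 2. It covered the start codon, but only 96 of its 358 nt lay in the exon, the rest reaching upstream of the annotated start and into the intron. In exon 3, which has 619 nt, the order was reversed, with 2.40 and 2.64 (codons 87 to 229 of 502). The third interval (91666649 to 91666859) lay in the 3′ UTR, its middle 319 nt after the stop codon, with 2.12 and 1.44. Only the exon 3 interval reached 2 in both replicates.

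Alkbh5 (chromosome 11, 60536381 to 60558512, plus strand, 4 exons) had a shared interval over the stop codon (60554238 to 60554525) with fold enrichments of 2.68 and 2.51 and nearly the same ends in both lists. The GGACT 20 nt after its stop codon lies in this interval. A second interval, in the CDS of exon 1, had 1.30 in replicate 1, which is the weakest value of the 9 genes at the 1.2 percentile, and 1.81 in replicate 2. In replicate 1 the strongest Alkbh5 peak was another one, far down the 3′ UTR of 4097 nt, 3568 nt after the stop codon, with 3.40. It had no counterpart in replicate 2, where the nearest peak was 3312 bp away.

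The genes were then ordered by the share of the representative mRNA that lay under shared intervals, a measure taken per length. It was 5.8% for Mettl3, 8.6% for Mettl14, 8.8% for Alkbh5, 20.5% for Fto and 21.5% for Cbll1. Rbm15b had 28.7%, Wtap 33.0%, Rbm15 41.2% and Zc3h13 49.7%. The median of the 9 was 21.5%, beside 18.7% over the 9673 genes with a shared interval on the mRNA. Mettl3 stood at the 10.1 percentile of these genes and Zc3h13 at the 92.6 percentile.

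How far this order depends on a single list was seen from the peaks of each replicate alone. Zc3h13 (65.8% and 58.0% in replicates 1 and 2) and Rbm15 (45.8% and 48.5%) kept clear of each other and of the rest. Rbm15b (30.3% and 37.9%) and Wtap (36.5% and 33.5%) overlapped, and so did Fto (24.4% and 22.3%) and Cbll1 (28.5% and 21.5%). For the core subunits a large part of the peaks was not shared, so that Mettl3 covered 19.4% in replicate 1 and 6.6% in replicate 2, and Mettl14 31.8% and 22.9%. Alkbh5 had 13.9% and 21.2%. Counted in single lists Mettl14 was above Alkbh5, Fto and Cbll1 in both replicates, and above Rbm15b in replicate 1, so its low place rested on the requirement that both replicates share the bases.

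**Figure D3:**
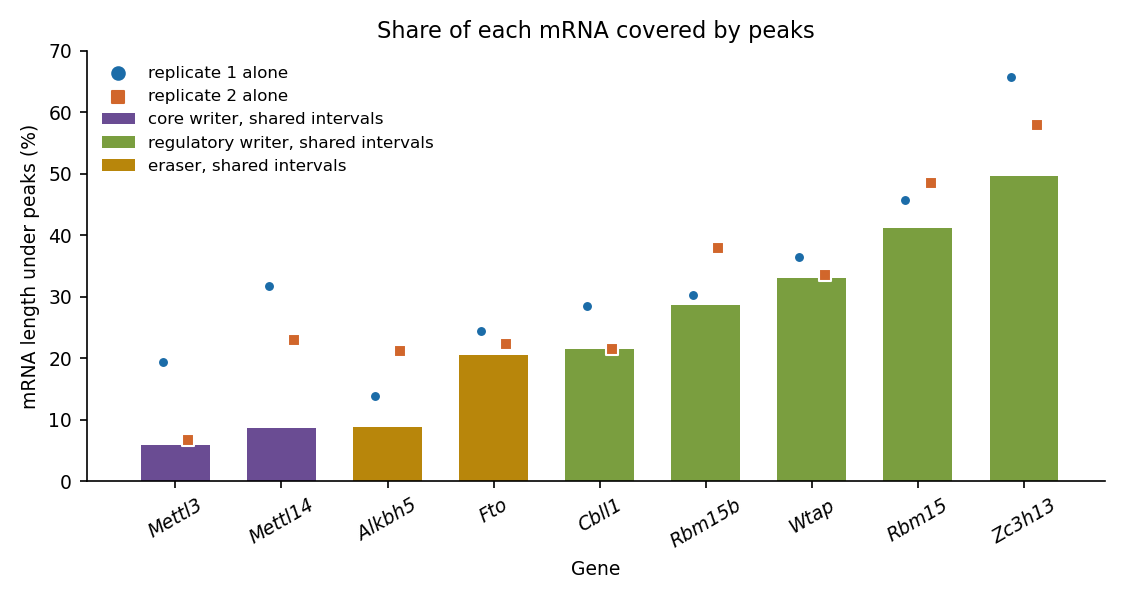
Share of the representative mRNA (% of its length) under shared intervals (bars, coloured by role) and under the peaks of replicate 1 (circles) or replicate 2 (squares) alone. Bars run from 5.8% for Mettl3 to 49.7% for Zc3h13, and for Mettl3, Mettl14 and Alkbh5 at least 1 replicate alone is more than 2 times the bar.

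Next, the position of the intervals on mRNA was examined. The midpoints of 26 of the 27 intervals lay on the representative transcripts, the exception being the exon 6 interval of Wtap. In the CDS lay 24 of these, or 92.3% (95% Wilson interval 75.9 to 97.9, counting error over intervals only), beside 61.8% of all 19713 placed intervals. The 3′ UTR held 2, in Zc3h13 and Fto, or 7.69%, against 28.9% of all. No midpoint lay in a 5′ UTR, where 9.26% of all did, and a count of 0 in 26 has a Wilson upper limit of 12.9% (11.5% if 3 counts are taken as the limit). Intervals of 1 gene share its sequence and its RNA level, and 9 of the 26 belong to Zc3h13, so these shares describe the 9 genes only.

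Positions relative to the stop codon varied between the genes. The stop codon itself lay under a shared interval in 6 genes, namely Mettl14, Wtap, Zc3h13, Rbm15b, Cbll1 and Alkbh5, and in 52.6% of all genes with a shared interval on the mRNA. The start codon did so in Rbm15b and Fto, against 22.9% of all genes. Midpoints within 200 nt of the stop codon numbered 4 of 26, or 15.4% (6.2 to 33.5), beside 22.9% of all placed intervals, and belonged to Mettl14, Zc3h13, Rbm15b and Alkbh5. In a window of 400 nt lay 10 of 26, or 38.5%, beside 35.5% of all, and with any base of the interval within 200 nt counted it was 7, or 26.9%, beside 35.1%. Rbm15, whose last interval is centred 201 nt before its stop codon, was the member just outside the 200 nt window.

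Exons of at least 400 nt held 21 of the 26 midpoints, or 80.8% (62.1 to 91.5), against 68.1% of all. The 5 exceptions were the intervals of Mettl3, of the first exon of Fto and of exons 8, 9 and 13 of Zc3h13. The last exon held 12, or 46.2%, against 48.2%, with the 4 of Rbm15b counted there because it has a single exon. With 2 or more shared intervals in 7 of the 9 genes, against 60.5% of all, the number of intervals per gene had the same median of 2 as in all genes.

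**Figure D4:**
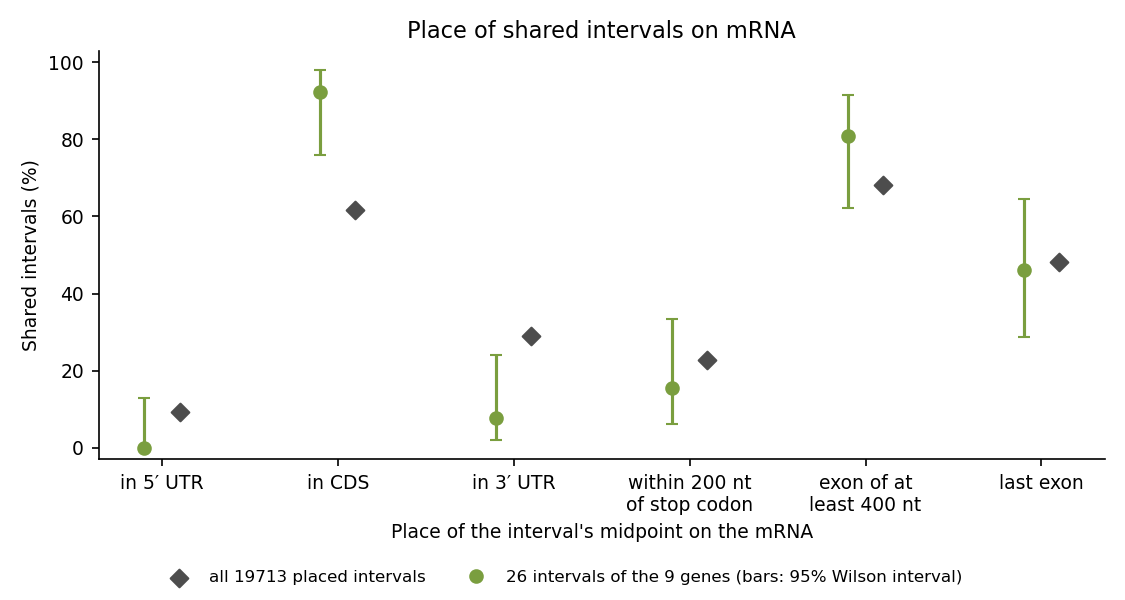
Share of shared intervals (%) by the place of their midpoint on the mRNA, for 26 intervals of the 9 genes (circles, bars show the 95% Wilson interval) and for all 19713 placed intervals (diamonds). The circle for the CDS is at 92.3% with the diamond at 61.8%, while the shares in the last exon are 46.2% and 48.2%.

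The consensus was then counted over the spliced mRNAs of the 9 genes, which hold 37018 nt, 26.5% of them under shared intervals. The core GGAC occurred 177 times on the sense strand. Under shared intervals lay 69 of these, a density of 7.02 per kb against 3.97 per kb in the rest of the same mRNAs. Most of these, 55 of 69, lay in Zc3h13, Rbm15 and Rbm15b. The core was denser inside in 6 of the 9 genes and not in Mettl14 (0 of 10 inside), Cbll1 (3.58 per kb inside, 3.92 outside) and Fto (2.73 inside, 4.24 outside). Among the 6, Mettl3 had only 2 sites inside and Alkbh5 3, and the share of all genes with a denser core inside was not computed. Over all genes with a shared interval on the mRNA the densities were 6.08 and 3.85. GGACT, which is contained in the core count, showed no such difference in the 9 genes. It occurred 12 times inside and 33 times outside, or 1.22 and 1.21 per kb, whereas over all genes the densities were 1.61 and 0.98.

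The higher density of the core lay in 2 other endings. GGACA occurred at 2.54 per kb inside (25 sites) and 1.03 outside (28), and GGACC at 2.65 (26) and 1.07 (29). GGACG had 0.61 (6) and 0.66 (18). These counts are small and were not split by gene. Most of the shared intervals lay in the CDS, whereas the rest of the mRNAs includes the UTRs, and base composition was not compared. Across all genes each of the 4 endings was denser inside than outside. By interval, GGACT was present in 10 of 26 placed intervals, or 38.5% (22.4 to 57.5), against 43.1% of all, and GGAC in 20, or 76.9% (57.9 to 89.0), against 82.0%. In windows of equal length, 100 nt around the midpoint, GGACT was in 2 of 26 against 15.7% of all, and GGAC in 13 against 46.3%. The opposite strand was not searched.

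**Figure D5:**
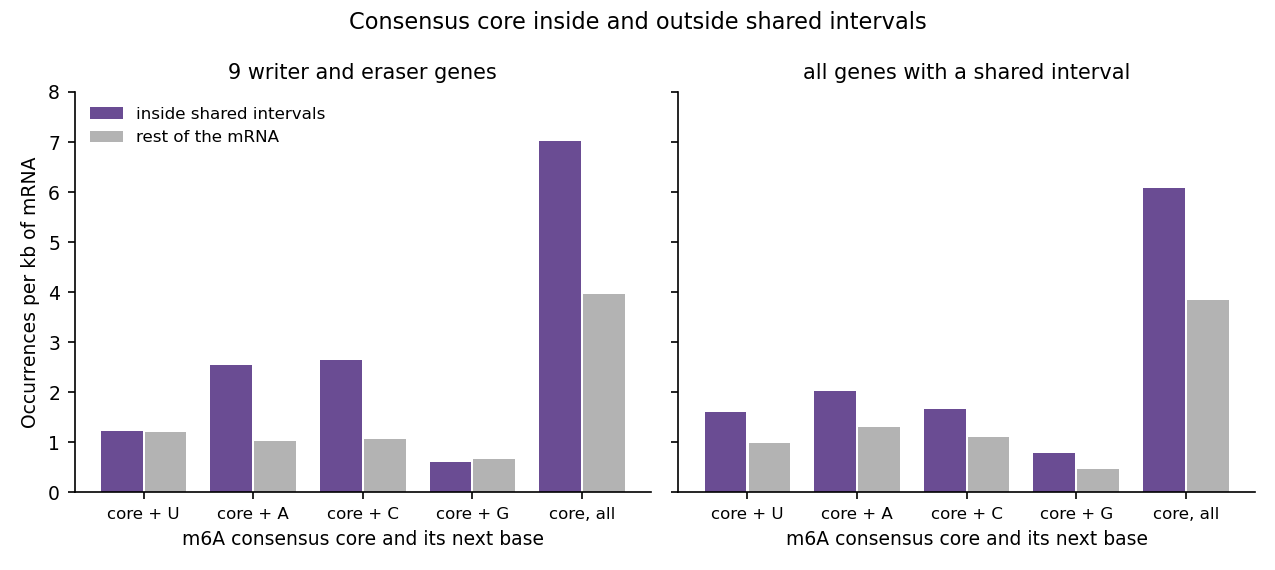
Occurrences per kb of mRNA of the m6A consensus core, by the base that follows it and in total, inside shared intervals (purple) and in the rest of the same mRNAs (grey), for the 9 genes (left) and for all 9673 genes with a shared interval on the mRNA (right). With U as the next base the bars of the 9 genes are level at 1.22 and 1.21 per kb, while in all genes they stand at 1.61 and 0.98.

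Finally, the replicates were compared over the peaks of the 9 genes. Of the replicate 1 peaks, 26 of 37 overlapped a replicate 2 peak, or 70.3% (95% Wilson interval 54.2 to 82.5), beside 60.0% of all replicate 1 peaks and 67.8% of those over exons of protein-coding genes. Of the replicate 2 peaks, 25 of 27 were shared, or 92.6% (76.6 to 97.9), beside 77.0% and 76.8%. The replicate 1 share was thus close to that of exonic peaks in general. With overlap of at least 50% of both peaks the shared part of the 9 genes' peaks fell to 54.1% in replicate 1 and 74.1% in replicate 2. The shares of all peaks under that rule were not computed, and those given above do not apply to it.

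Matching peaks, each the best partner of the other, formed 24 pairs. Their median fold enrichment was 3.31 in replicate 1, from 1.30 to 8.32, and 2.54 in replicate 2, from 1.44 to 3.48. All 22457 pairs had medians of 3.03 and 2.33. The value of replicate 1 was higher in 19 of the 24 pairs, or 79.2%, beside 77.9% of all pairs, and 17 pairs reached 2 in both replicates, or 70.8%, beside 63.0%. On the log2 scale the difference between replicates averaged 0.44 ± 0.55 (SD, n = 24 pairs) and 0.37 ± 0.48 over all pairs. A difference between 2 peaks of these genes of less than about this SD lies within the spread between the replicates. The strongest peak was the same in both lists in 4 genes, Wtap, Rbm15, Rbm15b and Cbll1. In Cbll1 this had to be so, since its only replicate 1 peak overlapped both of its replicate 2 peaks. The share of all genes with the same strongest peak was not computed, so whether this count is high or low cannot be said.

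By the median over the 9 genes together, peaks without a counterpart were weaker, but by value this order did not hold in every gene. In replicate 1 the median fold enrichment of the 11 such peaks of the 9 genes was 1.96, against 3.13 for the 26 shared ones, and over all replicate 1 peaks it was 2.69 against 3.01. In replicate 2 it was 2.22 for 2 peaks against 2.51 for 25, and over all replicate 2 peaks 1.84 against 2.33. Yet the strongest replicate 1 peak had no counterpart in Mettl3 (2.54, shared 1.78), Mettl14 (2.13, shared 2.03) and Alkbh5 (3.40, strongest shared 2.68). Each of these leads was smaller on the log2 scale than the SD between replicates given above, so they lie within that spread. In Zc3h13 the strongest, with 8.32, was shared.

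Other genes that methylate RNA were taken from a list of 7. Of these, 5 had a shared interval over an exon, and the same 5 had one of at least 2 in both replicates, beside 45.5% and 36.8% of all protein-coding genes. Virma, the large scaffold subunit of the same complex, had 6 shared intervals, all in the CDS. They ran from exon 5 to exon 14, 4 of them 2-fold or more in both lists, and by the lower value exon 8 led with 3.25 and 3.24. Its covered share of 24.3% lay between those of Cbll1 and Rbm15b. Mettl16, which methylates spliceosomal RNA and the transcript of Mat2a, had 1 in its last exon with 3.78 and 2.48.

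The remaining writers act on other RNAs or, in the case of Pcif1, at the cap. Pcif1, the enzyme of the methylated cap adenosine, had 4 shared intervals, the strongest in the 3′ UTR with 2.75 and 2.45. Another also covered an exon of Zfp335 and was not placed on a single representative transcript. The shared interval of Zcchc4, a ribosomal RNA methyltransferase, had 2.73 and 2.48 and lay outside the representative transcript. That of Mettl5, another ribosomal RNA methyltransferase, had 2.23 and 2.86 but also covered an exon of the neighbouring gene Ssb, so that it cannot be assigned. Trmt112, the partner of Mettl5, had no peak, and Mettl4 had 1 in replicate 1 and 2 in replicate 2, none of them shared.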

How the data were processed

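m6A-seq of mouse whole brain was analysed from the peak lists of 2 IP samples, and the inputs enter only through the fold enrichment. By the study's methods, the authors trimmed reads with Cutadapt and Trimmomatic, aligned them to mm10 with TopHat (TopHat2 2.0.9 in the submitters' processing notes) and discarded reads that mapped to several places. MACS2 then called peaks for each IP replicate against its own input, without a fragment-size model, with duplicates kept, at a false discovery rate cutoff. The deposited value of a peak is its fold enrichment, a linear ratio that was not scaled between replicates. Kept duplicates can raise it where molecules are few, and peak edges can reach into introns because peaks are called on the genome. Read depth is not given in the sources used here.

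Start and end were taken with both bases counted, the shortest peak then being 200 nt. No peak ended beyond its GRCm38 chromosome, and all 9 representative transcripts began their CDS with ATG. A shared interval holds the bases where peaks of both lists overlap (at least 1 bp). Percentiles rank a peak within its own list. Motifs were searched on the sense strand. The overlap and position functions were tested on simulated data and checked against bedtools 2.31.1, and Wilson intervals came from scipy 1.17.1 (Python 3.11.15). No comparison was tested. The genes and lists were chosen with earlier results of these data known. All 9 genes are named, every GGACT in their shared intervals is shown, and other pathway genes are named where a shared interval reached 2 in both lists or where no peak was found. Mettl4, Mat2b and Ythdc2 fall outside this rule and were named after their values were seen. Alternatives covered the overlap rule, a fold enrichment minimum, exon and transcript choice, merging of peaks, windows and single replicates.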

Additional observations from a re-analysis of the deposited data

How the results depend on the processing

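Of 61 alternative values over 11 results, 50 stayed within the spread and 11 moved. The spread was 1.5 times for counts, the Wilson interval for shares of peaks, 0.55 for the median fold enrichment (SD of both replicates' medians, linear scale) and 5.2 percentage points for the covered share (SD of both replicates alone). With at least 50% of both peaks in common, the shared peaks of the 9 genes were 54.1% in replicate 1 and 74.1% in replicate 2, and 6 of 19 intervals held GGACT. With midpoints within 100 bp the shared peaks were 45.9% and 63.0%, and 8 of the 9 genes kept a shared peak, all but Cbll1. Under these overlap rules the shares over all peaks and all intervals were not computed. With weaker peaks than 2-fold left out of both lists the median over matched pairs, averaged over the replicates, rose from 2.93 to 3.53, and 7 of the 9 genes kept a shared peak. The count of intervals near stop codons was 4, and became 10 with a window of 400 nt and 7 with any base within 200 nt. In 100 nt around the midpoint GGACT was in 2 intervals and GGAC in 13. By construction, a stricter overlap can only lower the shared peaks, leaving out weak peaks raises the median, wider stop codon rules only add intervals, and shorter motif windows hold fewer bases. Without replicate 1 and without replicate 2 the median covered share of the mRNAs was 22.9% and 30.3%. The median fold enrichment was then 2.50 and 2.58, taken over all 27 and 37 peaks of the list that was left and not over matched pairs. No paired analysis was possible because only the IP samples have peak lists here and no groups were compared by a test. Depth is unknown, so that a missing peak, as in Trmt112, cannot be told apart from too few reads.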

Other observations

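Genes that read m6A or supply its methyl donor were looked up in the same lists. The 5 genes of the YTH family, whose proteins bind m6A, all had shared intervals, 16 in total, and 4 of them had one of at least 2 in both replicates. Over all protein-coding genes the shares were 45.5% and 36.8%. Ythdf1 had a single interval of 1521 nt that filled its long coding exon, enriched 6.17-fold and 2.85-fold in replicates 1 and 2, and 66.9% of its mRNA lay under it. Ythdf2 had 3 intervals, up to 4.45 and 3.24, and Ythdf3 had 3, of which the one in the CDS had 3.72 and 3.06 and the one in the 3′ UTR 2.64 and 3.92. Ythdc1 had 8 intervals, of which exon 4 was strongest in replicate 1, with 6.17 against 3.29 in replicate 2, and an interval outside the representative exons was strongest in replicate 2, with 3.94 against 2.53. At exon 4 another annotated gene, Gm43055, overlaps. By midpoint 4 of the 8 lay outside exons of the representative transcript. Ythdc2 had 1, with 1.69 and 1.70.

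Of 3 enzymes of methyl donor metabolism, Mat2a, which makes S-adenosylmethionine, had 2 shared intervals. The one in its 3′ UTR had 2.08 in replicate 1 and 2.17 in replicate 2, and the one over the first exon, which also covers an exon of the gene Particl, had 1.58 and 1.46. Mat2b, its regulatory partner, had 1 in the 5′ UTR with 2.17 and 1.25. Ahcy, which clears the product S-adenosylhomocysteine, had no peak in either list. These values were not tested against those of the writers and erasers.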
